A study of Gallus gallus with 12 samples.

Results

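Solute carrier (SLC) genes were examined in the subepithelial mesenchyme of the embryonic chick gut, the loose connective tissue directly under the epithelium. A gene was included when its symbol began with SLC and a digit and its counts summed to 50 or more over the 12 mesenchyme samples. This left 104 of the 259 SLC genes in a table of 17138 genes, from 36 SLC families, and 155 stayed below the floor, 4 of them with no mesenchyme count. The floor used only the total over all 12 samples, so the totals are given as a description and were not tested. Some genes of low total reached it only with the counts of the group where they were highest. Among them were SLC38A4, SLC38A3, SLC4A1, SLC37A2 and SLC3A1, and their differences carry that limit. The name rule also took in SLC9A3R1 and SLC9A3R2, which encode scaffold proteins of the cell membrane and no transporter.

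The Gallus gallus embryos were taken at embryonic day 14, and RNA was read with Light-seq, in which regions outlined on a section are barcoded by light before sequencing. The hindgut group was hindgut of embryos given the retrovirus RCAS-mGFP, which carries a fluorescent protein. The Hoxd13 midgut group was midgut given RCAS-Hoxd13, a retrovirus that carries a homeobox transcription factor of the posterior body. The midgut group was midgut given RCAS-mGFP. In all 3 groups, of 4 samples each, eggs were kept at 38 °C and the virus was electroporated in the egg at Hamburger-Hamilton stage 17 into splanchnic lateral plate mesoderm at midgut level, the tissue that forms the gut wall. The design text asks which mesenchymal genes hindgut and Hoxd13 midgut share in their difference from midgut. Nothing in the labels ties the replicates to separate embryos, and p-values therefore reflect only the spread between these samples, which may be technical.

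Solute carriers move ions, sugars, amino acids, metals, nucleotides and metabolites across the plasma membrane and the membranes of organelles, as exchangers, as cotransporters driven by sodium or protons, or as uniporters. Family 25 sits mainly in the inner mitochondrial membrane, family 35 in the Golgi apparatus and endoplasmic reticulum, and families 30 and 39 carry zinc. In the gut, the best known solute carriers are those of the epithelial brush border, which absorb glucose, amino acids, peptides and phosphate, whereas mesenchymal cells rely on them for nutrition, pH and volume control and for the supply of sugars to the matrix they make.

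Each mesenchyme sample held between 210803 and 903222 counts (median 356599). CPM here are counts divided by the sample's total, after scaling of that total by TMM factors, and set to the usual common total. On this scale a count of 0 allows a level of up to 2.54 to 15.4 CPM in a single sample (3 counts per sample, counting error only). HOXD13 had 4, 2, 1 and 8 counts in hindgut, 213, 202, 155 and 238 counts in Hoxd13 midgut and 0 in each midgut sample. All 7 fibroblast markers were counted in every group and summed to 12582, 17112, 21040 and 17496 CPM in hindgut, 10264 to 14181 CPM in Hoxd13 midgut and 13527 to 15172 CPM in midgut, with hindgut replicates 2 to 4 above every other sample. All 10 of 13 epithelial markers that the table held were counted as well. Hindgut replicate 1, the deepest sample, stood apart from hindgut replicates 2 to 4. Its 10 epithelial markers summed to 2475 CPM, against 982 to 1077 CPM in the other hindgut samples, 2270 to 2500 CPM in Hoxd13 midgut and 2099 to 2883 CPM in midgut. Its 3 W-linked genes, which only female birds carry, summed to 32.1 CPM, against 164 to 191 CPM in the other hindgut samples, 163 to 201 CPM in Hoxd13 midgut and 0 to 6.68 CPM in midgut. Counts of solute carrier calls and the main hindgut results are therefore given with and without this sample. For other single genes, such as SLC38A1, SLC16A1, SLC11A2 and SLC37A2, values are given here only with it. In bulk samples such as these, fewer cells of a type and less RNA per cell cannot be told apart.

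The 104 genes held 17674 mesenchyme counts, 0.278% to 0.470% of a sample's total. Their totals were uneven. The median gene had 108.5 counts, 56 genes had 100 or more, and the 10 highest held 34.7% of the counts. Among the highest were SLC25A6 (1120 counts), SLC9A3R1 (714), SLC44A2 (592), SLC25A5 (551), SLC11A2 (440), SLC38A2 (414), SLC25A3 (369), SLC38A10 (329) and SLC25A1 (308). Counts were not divided by transcript length, so these totals do not rank the genes by number of transcripts. A sample detected 94 to 104 of the genes, and 88 were counted in all 12 samples. At the edge of the rule, SLC25A17, SLC25A42 and SLC30A6 had 50 counts each, while SLC12A7 had 49 and SLC16A10 and SLC44A5 had 48.

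Few of the genes, as of all genes tested, differed between the 3 groups by the test across all genes. In hindgut against midgut, 0 of the 104 passed an adjusted p of 0.05 in edgeR's quasi-likelihood test, beside 1.25% of all 7016 genes tested, and DESeq2 also called 0. At an unadjusted p under 0.05 there were 9 (8.65%), beside 9.69% of all genes. In Hoxd13 midgut against midgut, edgeR called 0, beside 1.24% of all genes, and DESeq2 called 0; 11 (10.6%) had an unadjusted p under 0.05, beside 13.4% of all genes. In hindgut against Hoxd13 midgut, 2 genes (1.92%) fell, SLC9A3R1 and SLC34A2, beside 0.698% of all genes that fell and 1.87% called in either direction, and DESeq2 called 1. There 14 (13.5%) had an unadjusted p under 0.05, beside 14.1% of all genes. Samples of the groups did not overlap for 1 gene (0.962%) in hindgut against midgut, beside 2.24% of all genes, for 8 (7.69%) in Hoxd13 midgut against midgut, beside 10.3%, and for 10 (9.62%) in hindgut against Hoxd13 midgut, beside 7.94%. The shares at an unadjusted p under 0.05 lay near those of all genes, slightly below, and do not set the solute carrier genes apart. The median log2 fold change of the solute carrier genes was -0.09 in hindgut against midgut (all genes -0.01), -0.02 in Hoxd13 midgut against midgut (all genes 0.00) and -0.05 in hindgut against Hoxd13 midgut (all genes 0.00). The median standard error of a solute carrier gene was 0.39, 0.40 and 0.39 log2 units in these comparisons, against 0.34, 0.36 and 0.35 for all genes.

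**Figure D1:**
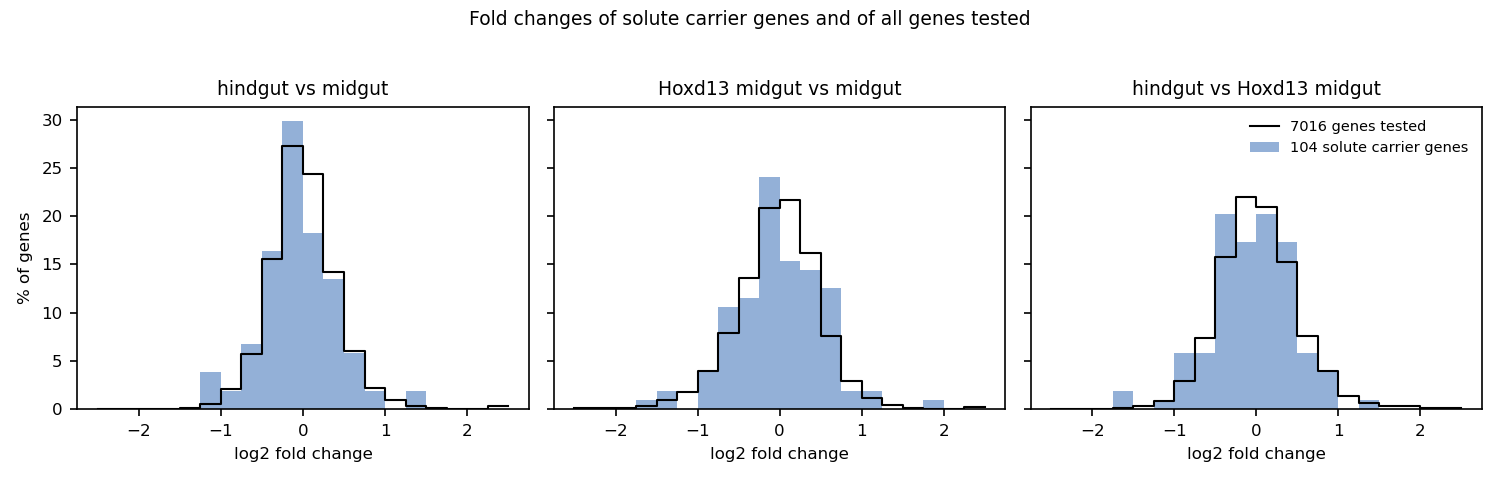
Distribution of log2 fold changes in the subepithelial mesenchyme for the 104 solute carrier genes (filled bars) and all 7016 genes tested (line), as a percentage of each set, in the 3 comparisons; values beyond -2.5 or 2.5 are counted in the outermost bins. Both distributions are centred near 0, with solute carrier medians of -0.09, -0.02 and -0.05.

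Grouped by SLC family, hindgut and Hoxd13 midgut were separated in 2 of 8 classes, and neither was separated from midgut in any. The 22 genes of inorganic ion and acid-base transport summed to 799 ± 44.4 summed CPM in hindgut, 996 ± 72.8 in Hoxd13 midgut and 883 ± 37.4 in midgut (mean ± SD, n = 4 each). Hindgut samples (754 to 858 CPM) all lay below Hoxd13 midgut samples (909 to 1088 CPM), while midgut samples (857 to 939 CPM) overlapped with both, with hindgut only through replicate 1. The scaffold pair SLC9A3R1 and SLC9A3R2 made up part of this difference. It summed to 113 to 182 CPM in hindgut, 206 to 255 CPM in Hoxd13 midgut and 185 to 213 CPM in midgut. The 20 transporters left in the class still had 622 to 676 CPM in hindgut, below the 691 to 835 CPM of Hoxd13 midgut. Metal ion carriers (13 genes) summed to 408 ± 39.2 summed CPM in hindgut, 453 ± 15.5 in Hoxd13 midgut and 444 ± 36.9 in midgut. Here too every hindgut sample (349.7 to 437 CPM) lay below every Hoxd13 midgut sample (441 to 475 CPM), by little, and midgut (404 to 484 CPM) overlapped with both. Mitochondrial carriers (15 genes) summed to 685 ± 43.5 summed CPM in hindgut, 785 ± 52.8 in Hoxd13 midgut and 773 ± 58.5 in midgut. Hindgut replicates 2 to 4 (649 to 683 CPM) lay below every Hoxd13 midgut sample (721 to 843 CPM) and every midgut sample (697 to 832 CPM), whereas hindgut replicate 1, at 747 CPM, lay among them. Amino acid carriers (17 genes) summed to 490.3 ± 23.6 summed CPM in hindgut, 489.8 ± 54.6 in Hoxd13 midgut and 511 ± 34.4 in midgut, and the groups overlapped. The sugar families (7 genes) summed to 204 ± 17.6 summed CPM in hindgut, 211 ± 25 in Hoxd13 midgut and 221 ± 29.6 in midgut. The monocarboxylate and organic ion families (9 genes) summed to 222 ± 36.5 summed CPM in hindgut, 199 ± 13.4 in Hoxd13 midgut and 207 ± 45.3 in midgut, and the nucleotide sugar family (9 genes) to 202 ± 22.2 summed CPM in hindgut, 220.3 ± 22.7 in Hoxd13 midgut and 177 ± 25 in midgut. The other 12 genes summed to 407 ± 50.9 summed CPM in hindgut, 352 ± 51 in Hoxd13 midgut and 436 ± 18.4 in midgut. In these 4 classes the groups overlapped in every comparison. These sums were not tested.

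**Figure D2:**
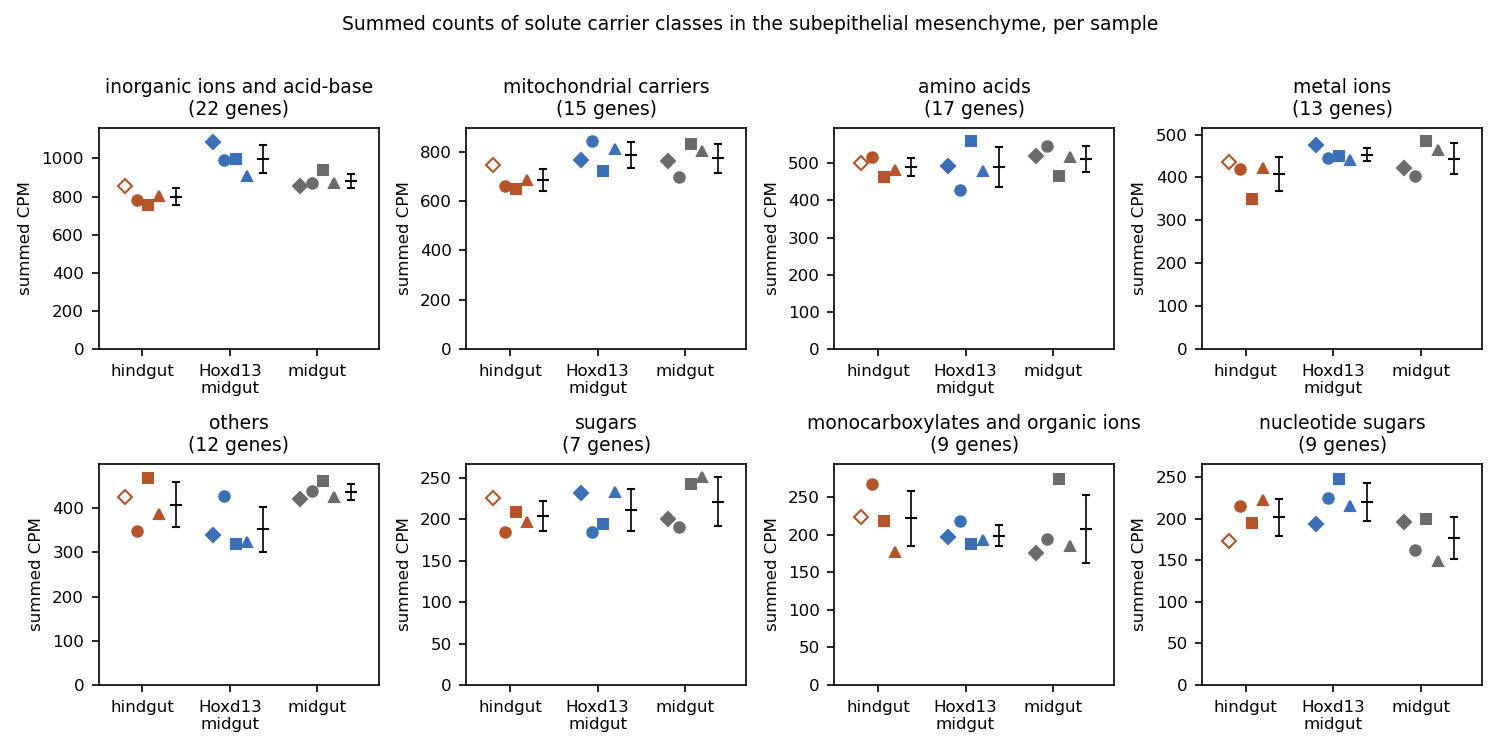
Summed CPM of each solute carrier class in the 12 mesenchyme samples (points; diamond, circle, square and triangle are replicates 1 to 4, the open diamond is hindgut replicate 1; black bars are mean ± SD, n = 4). Ion and acid-base carriers had 754 to 858 CPM in hindgut, below the 909 to 1088 CPM of Hoxd13 midgut, and the midgut samples overlapped with both.

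Among single ion carriers, the bicarbonate carriers SLC4A2 and SLC4A4 and the sodium-calcium exchanger SLC8A1 overlapped between all groups, for SLC8A1 with 47.5 ± 8.51 CPM in hindgut, 35.2 ± 6.93 CPM in Hoxd13 midgut and 36.8 ± 16 CPM in midgut (SD, n = 4 each). SLC20A2, a phosphate carrier found in most tissues, had 10 to 26.7 CPM in Hoxd13 midgut, above the 3.23 to 9.54 CPM of midgut in 4 of 4 samples, but did not pass the test (log2 fold change 1.22 ± 0.52 (SE), adjusted p = 0.28).

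SLC9A3R1, a PDZ scaffold that anchors ion exchangers and phosphate carriers under the apical membrane of epithelial cells, fell in hindgut against Hoxd13 midgut. It had 140.3, 61.5, 63.6 and 90.8 CPM in hindgut, 214, 169.7, 188 and 178 CPM in Hoxd13 midgut and 142, 137, 181 and 152 CPM in midgut, in the order of replicates 1 to 4. All 4 hindgut samples lay below all Hoxd13 midgut samples, and hindgut replicate 1 reached the midgut range (log2 fold change -0.91 ± 0.20 (SE), adjusted p = 0.014). Against midgut, hindgut was lower in 3 of 4 samples and did not pass the test (log2 fold change -0.61 ± 0.20 (SE), adjusted p = 0.16). Leaving out each of the 12 samples in turn gave log2 fold changes of -1.29 to -0.80 against Hoxd13 midgut. The call held in 9 of these 12 fits and was lost without hindgut replicate 2 (adjusted p = 0.052), hindgut replicate 4 (0.054) or Hoxd13 midgut replicate 1 (0.06). Without hindgut replicate 1, SLC9A3R1 fell in hindgut against both Hoxd13 midgut (log2 fold change -1.29 ± 0.20 (SE), adjusted p = 1e-06) and midgut (log2 fold change -0.997 ± 0.20 (SE), adjusted p = 0.00014).

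SLC34A2, known in mammals as the sodium-phosphate cotransporter of the small intestinal brush border, was the other gene that fell. It had 54.1, 10.3, 9.08 and 0 CPM in hindgut, 65.4, 97, 80.5 and 95.2 CPM in Hoxd13 midgut and 49, 57.3, 90.3 and 48 CPM in midgut. Every hindgut sample lay below every Hoxd13 midgut sample, and hindgut replicates 2 to 4, with 4 counts between them, lay far below hindgut replicate 1 (log2 fold change -1.58 ± 0.41 (SE), adjusted p = 0.037). The call was lost in DESeq2 (log2 fold change -2.06, adjusted p = 0.27) and in a fit of these 2 groups alone (log2 fold change -1.62, adjusted p = 0.085). It held in 4 of 12 fits that left out a sample, those without hindgut replicate 1 or midgut replicate 1, 2 or 3. Without midgut replicate 4 the adjusted p was 0.053, without hindgut replicates 2, 3 and 4 in turn it was 0.088, 0.083 and 0.071, and without Hoxd13 midgut replicates 1 to 4 in turn it was 0.063, 0.12, 0.092 and 0.13. Without hindgut replicate 1 the log2 fold change was -4.14 against Hoxd13 midgut (adjusted p = 1.6e-10) and -3.64 against midgut (adjusted p = 4e-08). Pooled over hindgut replicates 2 to 4, the level was 0.0523 of that in Hoxd13 midgut (95% counting interval 0.0140 to 0.137) and 0.0751 of that in midgut (0.0200 to 0.199). SLC34A2 is one of the brush border transporters whose sum, given below, helped to set hindgut replicate 1 apart. The p-values and ratios without that sample are therefore conditional on the choice to leave it out.

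**Figure D3:**
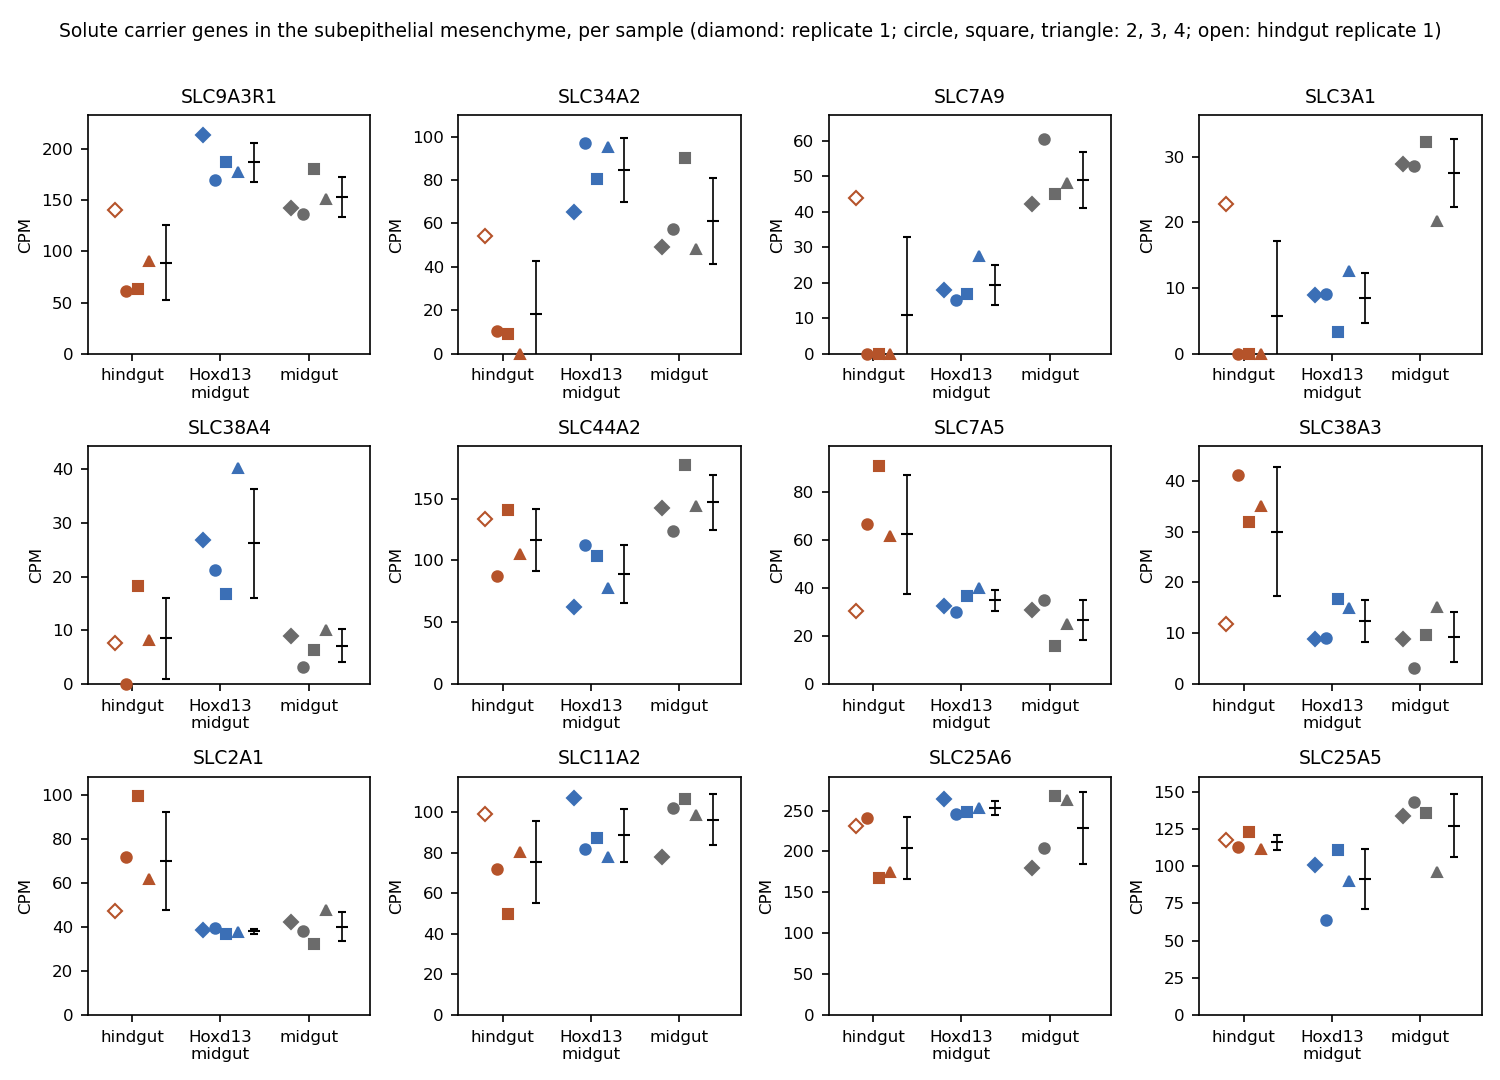
CPM of 12 solute carrier genes in each mesenchyme sample (symbols as replicates 1 to 4, with the open diamond for hindgut replicate 1; black bars are mean ± SD, n = 4). SLC34A2, SLC7A9 and SLC3A1 were at or near 0 in hindgut replicates 2 to 4, whereas hindgut replicate 1 lay within the midgut range.

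Other absorptive carriers had the same split within hindgut. SLC7A9 and SLC3A1 are the light and heavy chains of the cystine and dibasic amino acid carrier of the brush border. SLC7A9 had 43.9, 0, 0 and 0 CPM in hindgut, 17.8, 15.2, 16.8 and 27.6 CPM in Hoxd13 midgut and 42.3, 60.4, 45.2 and 48 CPM in midgut. SLC3A1 had 22.8, 0, 0 and 0 CPM in hindgut, 8.91, 9.09, 3.35 and 12.5 CPM in Hoxd13 midgut and 28.9, 28.6, 32.3 and 20.2 CPM in midgut. Both genes were at 0 in hindgut replicates 2 to 4, close to midgut in hindgut replicate 1, and lower in every Hoxd13 midgut sample than in every midgut sample. With hindgut replicate 1, neither passed the test in hindgut against midgut (SLC7A9, log2 fold change -1.21 ± 0.49 (SE), adjusted p = 0.33; SLC3A1, log2 fold change -1.25 ± 0.53 (SE), adjusted p = 0.38). In hindgut against Hoxd13 midgut their fitted changes with that sample were above 0 and did not pass (SLC7A9, log2 fold change 0.08 ± 0.57 (SE), adjusted p = 0.99; SLC3A1, log2 fold change 0.36 ± 0.67 (SE), adjusted p = 0.87). The mean CPM went the other way, with 11.0 in hindgut and 19.3 in Hoxd13 midgut for SLC7A9, and 5.70 and 8.47 for SLC3A1. The TMM-scaled total of hindgut replicate 1 was 1183260, against 195010 to 484731 in the other hindgut samples. Pooled over hindgut replicates 2 to 4, the ratio of SLC7A9 to midgut had a counting interval of 0 to 0.0871. The interval of its ratio to Hoxd13 midgut was 0 to 0.222. For SLC3A1 these intervals were 0 to 0.158 and 0 to 0.545.

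SLC5A1, the sodium-glucose cotransporter of the intestine, had 20.3, 0, 4.54 and 0 CPM in hindgut, 11.9, 21.2, 40.2 and 12.5 CPM in Hoxd13 midgut and 8.90, 22.3, 25.8 and 17.7 CPM in midgut. Its single count in hindgut replicates 2 to 4 gave a ratio of 0.0628 to midgut (95% counting interval 0.00153 to 0.382). SLC34A1, a sodium-phosphate cotransporter known from mammalian kidney, had 5.94 to 15.2 CPM in Hoxd13 midgut and 12.7 to 22.7 CPM in midgut. It had 16.1 CPM in hindgut replicate 1 and no count in replicates 2 to 4. Their pooled ratio to midgut had a 95% counting interval of 0 to 0.260. SLC26A2, a sulfate carrier, had 20.3, 0, 4.54 and 2.06 CPM in hindgut, 8.91, 6.06, 6.71 and 15 CPM in Hoxd13 midgut and 11.1, 19.1, 22.6 and 22.7 CPM in midgut, and its 2 counts in hindgut replicates 2 to 4 gave a ratio of 0.121 to midgut (0.0139 to 0.481).

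The 8 brush border transporters, 4 of which are among the 104 genes (SLC34A2, SLC7A9, SLC3A1 and SLC5A1) and make up most of the sum, came to 159.7, 15.4, 13.6 and 0 CPM in hindgut, 104 to 160.3 CPM in Hoxd13 midgut and 134 to 216 CPM in midgut. All 4 fell in hindgut without replicate 1, against midgut and against Hoxd13 midgut. SLC7A9, SLC3A1 and the brush border sum were themselves among the values that set replicate 1 apart. The p-values, pooled ratios and counting intervals of these genes without that sample are therefore conditional on the choice to leave it out. Of the other 4, the peptide carrier SLC15A1 had 14 counts in hindgut replicate 1 and 0 in hindgut replicates 2 to 4. It had 11 in Hoxd13 midgut and 16 in midgut. Pooled over hindgut replicates 2 to 4, its ratio to midgut had a counting interval of 0 to 0.423. SLC9A3 had 6 counts in hindgut replicate 1, 1 in hindgut replicates 2 to 4, 1 in Hoxd13 midgut and 6 in midgut, and SLC26A3 and SLC6A19 had at most 1 count in any group. The 10 epithelial markers, none of them a solute carrier, had the same split within hindgut, with 2475, 1077, 1017 and 982 CPM in replicates 1 to 4. The part of epithelial RNA in these results was not tested.

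**Figure D4:**
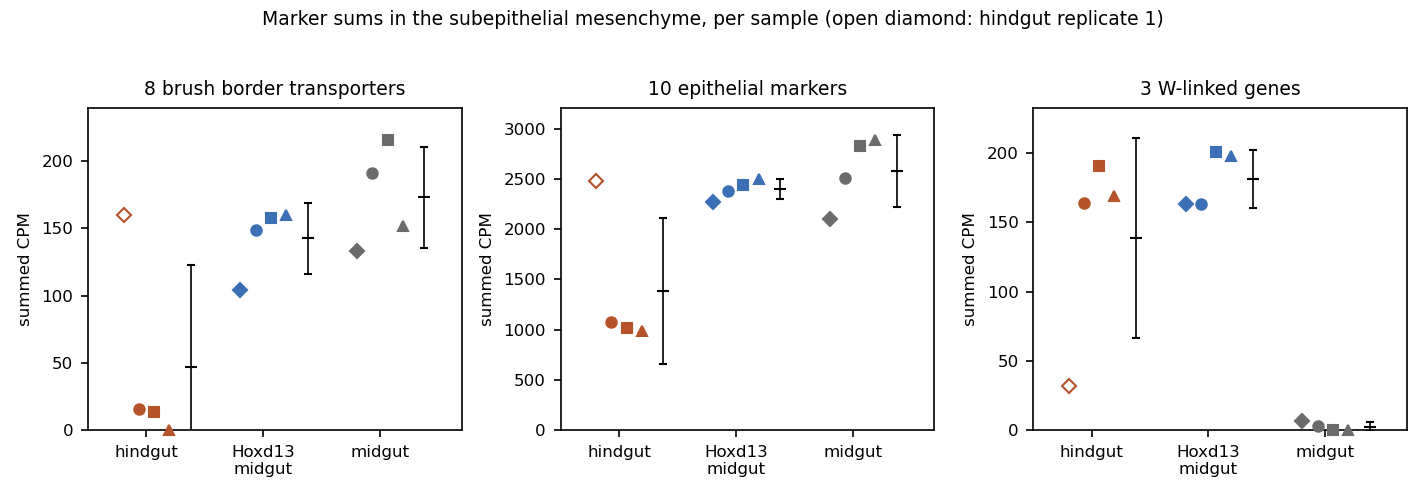
Summed CPM of 8 brush border transporters, 10 epithelial markers and 3 W-linked genes in the mesenchyme samples (symbols as replicates 1 to 4, with the open diamond for hindgut replicate 1; black bars are mean ± SD, n = 4). Hindgut replicate 1, at 159.7 CPM, 2475 CPM and 32.1 CPM, lies apart from the other 3 hindgut samples in each panel.

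Among amino acid carriers of the plasma membrane, SLC38A2, a sodium-coupled carrier of small neutral amino acids, had 70.1, 92.3, 77.2 and 90.8 CPM in hindgut, 119, 81.8, 124 and 97.7 CPM in Hoxd13 midgut and 84.6, 82.7, 54.8 and 70.8 CPM in midgut. In 3 of 4 samples Hoxd13 midgut lay above all midgut samples (log2 fold change 0.51 ± 0.20 (SE), adjusted p = 0.25), which did not pass the test. SLC38A1, a related glutamine carrier, was lower in hindgut (31.8 to 51.6 CPM) and in Hoxd13 midgut (26.8 to 52.6 CPM) than in every midgut sample (54.1 to 55.6 CPM). Neither difference passed the test (log2 fold change -0.27, adjusted p = 0.9, and -0.59, adjusted p = 0.3). It was the 1 gene whose hindgut and midgut samples did not overlap.

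SLC38A4, a carrier of neutral and cationic amino acids, came closest to a call in Hoxd13 midgut. It had 7.61, 0, 18.2 and 8.25 CPM in hindgut, 26.7, 21.2, 16.8 and 40.1 CPM in Hoxd13 midgut and 8.90, 3.18, 6.45 and 10.1 CPM in midgut. All 4 Hoxd13 midgut samples exceeded all midgut samples (log2 fold change 1.81 ± 0.49 (SE), adjusted p = 0.057), and 3 of 4 hindgut samples lay within or below the midgut range. In hindgut against Hoxd13 midgut it did not pass either (log2 fold change -1.67 ± 0.46 (SE), adjusted p = 0.052). Against midgut it passed in 4 of 12 fits that left out a sample, with adjusted p of up to 0.25 over the 12. These were the fits without hindgut replicate 1 (adjusted p = 0.015), 2, 3 or 4 (0.049 each). No fit without a Hoxd13 midgut or midgut sample passed. It passed in the fit of Hoxd13 midgut and midgut alone (0.0082) and without a filter on low counts (0.047), but not in DESeq2.

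SLC7A5, the exchanger of large neutral amino acids, and SLC38A3, a glutamine carrier, leaned the other way, towards hindgut. SLC7A5 had 30.4, 66.7, 90.8 and 61.9 CPM in hindgut, 32.7, 30.3, 36.9 and 40.1 CPM in Hoxd13 midgut and 31.2, 35, 16.1 and 25.3 CPM in midgut. Hindgut replicates 2 to 4 exceeded every sample of both other groups, and replicate 1 lay among them (log2 fold change 0.99 ± 0.32 (SE), adjusted p = 0.15 against midgut). SLC38A3 had 11.8, 41, 31.8 and 35.1 CPM in hindgut, 8.91, 9.09, 16.8 and 15 CPM in Hoxd13 midgut and 8.90, 3.18, 9.68 and 15.2 CPM in midgut, with the same order (log2 fold change 1.37 ± 0.48 (SE), adjusted p = 0.2 against midgut). Without hindgut replicate 1 both rose in hindgut, SLC7A5 by a log2 fold change of 1.36 against midgut (adjusted p = 4e-04) and 1.00 against Hoxd13 midgut (adjusted p = 0.013). For SLC38A3 these values were 1.86 (adjusted p = 0.002) and 1.49 (adjusted p = 0.017).

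SLC2A1, the glucose uniporter of most non-absorptive cells, had 47.3, 71.8, 99.9 and 61.9 CPM in hindgut, 38.6, 39.4, 36.9 and 37.6 CPM in Hoxd13 midgut and 42.3, 38.2, 32.3 and 48 CPM in midgut. Its hindgut samples all lay above the Hoxd13 midgut samples, 3 of 4 lay above every midgut sample, and neither difference passed the test (log2 fold change 0.73 ± 0.26 (SE), adjusted p = 0.15 against Hoxd13 midgut and log2 fold change 0.64 ± 0.25 (SE), adjusted p = 0.32 against midgut). Without hindgut replicate 1 it rose against both, with log2 fold changes of 0.96 (adjusted p = 0.012) and 0.85 (adjusted p = 0.02). SLC5A6, the multivitamin carrier of the same family as SLC5A1 and the leading gene of the sugar families, had 59.2, 15.4, 31.8 and 30.9 CPM in hindgut, 89.1, 54.6, 46.9 and 57.6 CPM in Hoxd13 midgut and 49, 38.2, 74.2 and 73.3 CPM in midgut. It fell without hindgut replicate 1 (log2 fold change -1.16 ± 0.32 (SE), adjusted p = 0.011 against Hoxd13 midgut and log2 fold change -1.08 ± 0.32 (SE), adjusted p = 0.016 against midgut). With that sample, SLC5A6 passed in neither (log2 fold change -0.58, adjusted p = 0.37 and log2 fold change -0.49, adjusted p = 0.67).

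Among carriers of monocarboxylates, SLC16A1, which moves lactate and pyruvate with protons, had 43.9, 35.9, 63.6 and 78.4 CPM in hindgut, 53.5, 39.4, 30.2 and 35.1 CPM in Hoxd13 midgut and 44.5, 38.2, 35.5 and 40.4 CPM in midgut. Hindgut replicates 3 and 4 lay above all other samples, replicates 1 and 2 lay among them, and no comparison passed the test (log2 fold change 0.46 ± 0.26 (SE), adjusted p = 0.64 against midgut). SLC16A9 had 62.3 ± 33.2 CPM in hindgut, 29.5 ± 6.42 CPM in Hoxd13 midgut and 32.5 ± 20 CPM in midgut (SD, n = 4 each) and SLC16A4 had 11.6 ± 7.50 CPM in hindgut, 19 ± 6.91 CPM in Hoxd13 midgut and 23.9 ± 4.85 CPM in midgut. SLC16A4 fell in hindgut against midgut without hindgut replicate 1 (log2 fold change -1.57 ± 0.54 (SE), adjusted p = 0.044) and did not pass with it (log2 fold change -0.76, adjusted p = 0.6).

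Sodium and proton gradients and the use of glucose tie the carriers to other genes, of which 26 of 40 listed had enough counts to test. In hindgut against midgut 2 rose, the glycolytic enzymes GAPDH (log2 fold change 0.76, adjusted p = 0.013) and ALDOC (0.78, adjusted p = 0.047), and 0 fell, beside 1.25% of all genes called. GAPDH averaged 873 ± 206 CPM in hindgut, 643 ± 105 CPM in Hoxd13 midgut and 512 ± 31.2 CPM in midgut (SD, n = 4 each). In Hoxd13 midgut against midgut 2 rose, PGAM1 (0.52, adjusted p = 0.048), also of glycolysis, and TFRC (2.34, adjusted p = 0.0029), the transferrin receptor, beside 1.24% of all genes called. None passed in hindgut against Hoxd13 midgut, beside 1.87% of all genes; there 5 had an unadjusted p under 0.05 in edgeR, beside 14.1% of all genes, and DESeq2 called 0. The median log2 fold change of the 26 genes was 0.10, 0.25 and -0.20 in these comparisons. The sodium pump subunit ATP1B1 fell without hindgut replicate 1, by 1.08 log2 units against midgut (adjusted p = 3.1e-07) and by 0.97 against Hoxd13 midgut (adjusted p = 8.5e-06). With that sample, ATP1B1 passed in neither (log2 fold change -0.64, adjusted p = 0.1 and log2 fold change -0.53, adjusted p = 0.17). The calls in hindgut against midgut were lost in a fit of the 2 groups alone (0 called) and in 6 of 12 fits that left out a sample, and they numbered 7 without hindgut replicate 1, 4 higher and 3 lower, beside 12.4% of all genes (6.17% higher and 6.21% lower). In Hoxd13 midgut against midgut, 1 call was left in 9 of those 12 fits.

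Among mitochondrial carriers, SLC25A6 and SLC25A5 exchange ADP for ATP across the inner membrane. SLC25A6 had 232, 241, 168 and 175 CPM in hindgut, 264, 246, 248 and 253 CPM in Hoxd13 midgut and 180.3, 204, 268 and 263 CPM in midgut. Its hindgut samples all lay below the Hoxd13 midgut samples, by little (log2 fold change -0.30 ± 0.16 (SE), adjusted p = 0.42), while midgut spanned both. SLC25A5 had 117, 113, 122.6 and 111 CPM in hindgut, 101, 63.7, 111 and 90.2 CPM in Hoxd13 midgut and 134, 143, 135 and 96 CPM in midgut. Its order was the reverse, with hindgut above Hoxd13 midgut in every sample (log2 fold change 0.35 ± 0.19 (SE), adjusted p = 0.44). Hoxd13 midgut also tended below midgut (log2 fold change -0.47 ± 0.19 (SE), adjusted p = 0.26), with overlap. The phosphate carrier SLC25A3 (71.7 ± 7.93 CPM in hindgut, 84.1 ± 17.2 CPM in Hoxd13 midgut and 72.9 ± 25.9 CPM in midgut; SD, n = 4 each) and the citrate carrier SLC25A1 (59.9 ± 18.3 CPM in hindgut, 52.1 ± 9.52 CPM in Hoxd13 midgut and 68.2 ± 14 CPM in midgut) overlapped between all groups. SLC25A36, a carrier of pyrimidine nucleotides, fell in hindgut against Hoxd13 midgut only when hindgut replicate 1 was left out (log2 fold change -1.11 ± 0.35 (SE), adjusted p = 0.029; with it, log2 fold change -0.67, adjusted p = 0.27).

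Metal carriers were led by SLC11A2, the proton-coupled importer of iron and other divalent metals. It had 98.9, 71.8, 50 and 80.5 CPM in hindgut, 107, 81.8, 87.2 and 77.7 CPM in Hoxd13 midgut and 77.9, 102, 106 and 98.6 CPM in midgut, with overlap between all groups and no call (log2 fold change -0.23 ± 0.20 (SE), adjusted p = 0.88 in hindgut against midgut). SLC40A1, the iron exporter, had 37.6 ± 16.8 CPM in hindgut, 31.3 ± 11.3 CPM in Hoxd13 midgut and 24.3 ± 6.80 CPM in midgut (SD, n = 4 each) and also overlapped. TFRC, which brings iron into the cell, averaged 35.9 ± 19.7 CPM in hindgut, 49.5 ± 5.89 CPM in Hoxd13 midgut and 9.39 ± 2.58 CPM in midgut. All 4 hindgut samples of TFRC lay above every midgut sample, without a call (log2 fold change 1.63 ± 0.47 (SE), adjusted p = 0.086). Without hindgut replicate 1, TFRC passed in hindgut against midgut as well (log2 fold change 2.17 ± 0.41 (SE), adjusted p = 4.4e-05). The zinc importers SLC39A6 and SLC39A14 were each separated in 1 comparison. SLC39A6 was higher in Hoxd13 midgut (30.2 to 45.5 CPM) than in midgut (9.54 to 29 CPM), and SLC39A14 was lower in hindgut (20.6 to 37.2 CPM) than in Hoxd13 midgut (40.2 to 66.7 CPM). Neither passed the test (adjusted p = 0.35 and 0.31).

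The choline carrier-like gene SLC44A2 was among the strongest differences of Hoxd13 midgut. It had 134, 87.2, 141 and 105 CPM in hindgut, 62.4, 112, 104 and 77.7 CPM in Hoxd13 midgut and 142, 124, 177 and 144 CPM in midgut. All 4 Hoxd13 midgut samples were below all midgut samples, and hindgut overlapped with both (log2 fold change -0.73 ± 0.20 (SE), adjusted p = 0.065). The difference passed in 2 of 12 fits that left out a sample, with adjusted p of up to 0.24 over the 12. These were the fits without hindgut replicate 1 (adjusted p = 0.0069) or 4 (0.047), and none without a Hoxd13 midgut or midgut sample passed. It passed in the fit of Hoxd13 midgut and midgut alone (0.004) and without a filter on low counts (0.036), but not in DESeq2. SLC35E3, a family 35 gene without a settled substrate, had 33.8, 35.9, 40.9 and 39.2 CPM in hindgut, 44.6, 57.6, 70.4 and 47.6 CPM in Hoxd13 midgut and 37.8, 35, 48.4 and 25.3 CPM in midgut. Its hindgut samples lay below all Hoxd13 midgut samples (log2 fold change -0.57 ± 0.25 (SE), adjusted p = 0.29), without a call. SLC37A2, a sugar phosphate exchanger of the endoplasmic reticulum, had 19.7 ± 6.12 CPM in hindgut, 7.53 ± 5.22 CPM in Hoxd13 midgut and 14.5 ± 13.3 CPM in midgut (SD, n = 4 each) and did not pass in hindgut against Hoxd13 midgut (log2 fold change 1.29 ± 0.57 (SE), adjusted p = 0.29).

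Leaving out hindgut replicate 1 changed the counts of calls. That sample was singled out by its values, so the calls made without it are conditional on that choice. In hindgut against midgut 15 of 104 genes (14.4%) then passed, beside 12.4% of all genes. The 4 that rose were SLC38A3, SLC4A1, SLC7A5 and SLC2A1, beside 6.17% of all genes, and the 11 that fell were SLC34A2, SLC7A9, SLC3A1, SLC34A1, SLC5A1, SLC26A2, SLC43A2, SLC16A4, SLC25A24, SLC5A6 and SLC9A3R1, beside 6.21%. SLC4A1, the anion exchanger of red blood cells, had 8.45, 35.9, 4.54 and 30.9 CPM in hindgut, 8.91, 9.09, 13.4 and 10 CPM in Hoxd13 midgut and 6.68, 3.18, 3.23 and 12.6 CPM in midgut, with hindgut replicates 2 and 4 above the rest (log2 fold change 1.83 ± 0.55 (SE), adjusted p = 0.016 without replicate 1). With replicate 1, SLC4A1 did not pass (log2 fold change 1.32 ± 0.58 (SE), adjusted p = 0.41). The 3 erythroid markers that the table held, of 5 and with SLC4A1 among them, summed to 331, 646, 658 and 739 CPM in hindgut, 137 to 173 CPM in Hoxd13 midgut and 175 to 303 CPM in midgut; their part in this result was not tested. In hindgut against Hoxd13 midgut 11 genes passed, beside 9.41% of all genes. There 3 rose, SLC38A3, SLC7A5 and SLC2A1, beside 4.85% of all genes, and 8 fell, beside 4.56%, namely SLC34A2, SLC7A9, SLC3A1, SLC34A1, SLC5A1, SLC5A6, SLC25A36 and SLC9A3R1. These comparisons share the hindgut samples. Smooth muscle markers (6 of 6) summed to 2015, 3979, 4505 and 5009 CPM in hindgut, 2511 to 2810 CPM in Hoxd13 midgut and 1502 to 2165 CPM in midgut, so hindgut replicates 2 to 4 also stood above the rest there, and the part of muscle RNA was not tested.

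**Figure D5:**
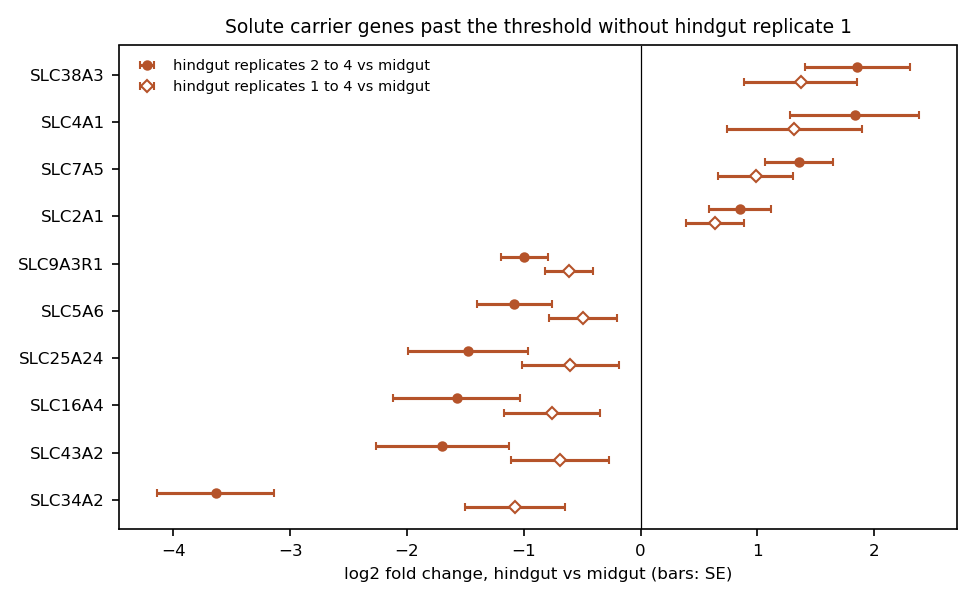
Log2 fold change in hindgut against midgut, with its standard error, for 10 of the 15 solute carrier genes that passed without hindgut replicate 1 (filled circles) and the same genes with all 4 hindgut samples (open diamonds). Each of the 10 genes keeps its direction and moves towards 0 with replicate 1. Choosing genes that passed without replicate 1 favours such a shift. SLC7A9, SLC3A1, SLC34A1, SLC5A1 and SLC26A2 are not drawn because hindgut replicates 2 to 4 had 0 to 2 counts.

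Hoxd13 midgut and midgut do not include that sample, yet it adds to the shared estimate of the spread. Without it, 4 solute carrier genes passed in Hoxd13 midgut against midgut, beside 4.29% of all genes (1.87% higher and 2.42% lower). SLC38A4 rose (log2 fold change 1.80 ± 0.48 (SE), adjusted p = 0.015), and SLC44A2 (log2 fold change -0.74 ± 0.18 (SE), adjusted p = 0.0069), SLC7A9 (log2 fold change -1.29 ± 0.33 (SE), adjusted p = 0.0085) and SLC3A1 (log2 fold change -1.60 ± 0.45 (SE), adjusted p = 0.023) fell. The same 4 genes passed when only Hoxd13 midgut and midgut were fitted. Over these 4 samples each, SLC7A9 averaged 19.3 ± 5.60 CPM in Hoxd13 midgut and 49.0 ± 7.99 CPM in midgut. The 10 epithelial markers summed to 2270, 2379, 2438 and 2500 CPM in Hoxd13 midgut and 2099, 2513, 2829 and 2883 CPM in midgut, with overlap. This sum pools markers that went both ways. Counts in Hoxd13 midgut and midgut were 739 and 1217 for ANPEP, 65 and 152 for CDX1 and 199 and 259 for KRT18. They were 979 and 879 for CDH1, 440 and 418 for EPCAM, 230 and 186 for CLDN3 and 370 and 358 for APOA1. For VIL1 they were 235 and 250, for FABP2 2 and 11 and for APOB 15 and 21. The part of epithelial RNA in the fall of SLC7A9 and SLC3A1 was not tested.

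Of the 104 genes, 100 could be placed on a chromosome with RefSeq (assembly GRCg7b), and 3 were Z-linked, namely SLC44A1, SLC12A2 and SLC30A5. W-linked sums differed between the groups, so the Z-linked genes were set apart. Over 224 Z-linked genes the median log2 fold change was -0.26 in hindgut against midgut, -0.37 in Hoxd13 midgut against midgut and 0.16 in hindgut against Hoxd13 midgut, against -0.01, 0.01 and -0.01 for 5697 genes placed elsewhere. SLC44A1, a choline carrier, had log2 fold changes of -0.23, -0.17 and -0.05 in the same order. SLC12A2, the sodium-potassium-chloride cotransporter, had -0.18, -0.65 and 0.48, and the zinc exporter SLC30A5 had -0.31, -0.58 and 0.27, with -0.05 in hindgut against Hoxd13 midgut without hindgut replicate 1. No comparison of the 3 genes passed the test, and sex and group cannot be told apart for them. The limit is not confined to Z-linked genes. W-linked sums were lower in every midgut sample (0 to 6.68 CPM) than in every Hoxd13 midgut (163 to 201 CPM) or hindgut sample (32.1 to 191 CPM). In both comparisons against midgut, sex and group therefore cannot be told apart for any of the 104 genes.

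The muscle layers of the same samples held far fewer counts. The 104 genes had 814 counts in the inner longitudinal muscle, where 98 were detected and 23 reached 10 counts, and 1752 in the circumferential muscle, where all 104 were detected and 66 reached 10. Because mesenchyme counts chose the genes, the layers are only described. Per total counts, the 104 genes made 3394 CPM of hindgut longitudinal muscle (95% Poisson interval 3037 to 3780), 2647 CPM of Hoxd13 midgut (2335 to 2988) and 3390 CPM of midgut (2960 to 3866). In circumferential muscle the values were 3246 CPM in hindgut (3013 to 3492), 2679 CPM in Hoxd13 midgut (2465 to 2907) and 3257 CPM in midgut (2964 to 3571). In the mesenchyme on this scale, they were 3975 CPM in hindgut (3884 to 4068), 3429 CPM in Hoxd13 midgut (3335 to 3525) and 3869 CPM in midgut (3766 to 3974). Without hindgut replicate 1, which gave 203 of 330 longitudinal, 430 of 722 circumferential and 4247 of 7273 mesenchyme counts of these genes in hindgut, the hindgut values were 2662 CPM (2219 to 3167), 2650.2 CPM (2355 to 2972) and 3266 CPM (3151 to 3385). These pooled values were then close to Hoxd13 midgut in both muscle layers and lower in the mesenchyme, where the intervals overlapped. Single mesenchyme samples did not separate on this scale. Hindgut replicates 2, 3 and 4 held 0.314%, 0.278% and 0.360% of their totals in these genes, against 0.336% to 0.353% in Hoxd13 midgut. On the TMM scale the mesenchyme mean was 3416 ± 121 CPM in hindgut with all its samples, below the 3705 ± 83.1 CPM of Hoxd13 midgut (SD, n = 4 each). The intervals leave out the spread between samples. SLC2A1, in circumferential muscle, had 26 counts in hindgut, 15 in Hoxd13 midgut and 9 in midgut, or 117 CPM (76.4 to 171), 69.8 CPM (39.1 to 115) and 64.6 CPM (29.5 to 123); hindgut without replicate 1 had 13 counts, or 118 CPM (62.8 to 202). SLC34A2 had only 3, 3 and 5 counts there, in the same order of groups, and those of hindgut were all in replicate 1.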

How the data were processed

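Light-seq counts of 12 samples were used, each with 3 layers, in 36 columns. The values are raw counts as deposited by the authors, whole numbers whose column totals differ. The submitters' processing notes name GRCg6a as build and list STAR, featureCounts, UMI-tools, DESeq2 and MultiQC without roles or settings. The sources used here do not give whether reads or unique molecules were counted, or whether strand was used, so reads of close copies and of overlapping or antisense genes cannot be told apart.

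The main test was edgeR 4.0.16 (R 4.3.3; quasi-likelihood, TMM factors, two-sided) on the 12 mesenchyme columns as deposited, which shared 1 estimate of the spread. All 7016 genes with a mesenchyme total of 50 or more were tested, so all 104 solute carrier genes entered, with Benjamini-Hochberg adjustment over the 7016 and a threshold of 0.05. A sample is said to lie beyond a group when it exceeds, or falls below, all of that group's samples. DESeq2 1.42.0, other filters and factors, fits of 2 groups, a replicate block and fits without each sample were the alternatives; those for the partner genes, class sums, muscle layers and SLC7A9, SLC3A1 and SLC26A2 in hindgut against Hoxd13 midgut were chosen after seeing the data. The test script was checked on simulated data. Intervals and floors cover counting error only. No pair of replicates agreed within sampling noise (chi-square per degree of freedom 1.19 to 7.06).

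Genes were named when they passed the threshold, or had the lowest p up to 10 in a comparison, had one of the 10 highest totals or the highest of a class, were Z-linked or lay at the edge of the floor. An item that this rule took in is not reported here. Others named were chosen after their values were seen: SLC4A2, SLC4A4, SLC8A1, SLC34A1, SLC5A1, SLC26A2, SLC43A2, SLC25A24, SLC40A1, SLC39A6, SLC39A14, SLC9A3R2 and ATP1B1. The members, classes, partner genes and markers were chosen with earlier results of these data known. Classes follow the SLC family number, so SLC5A6 counts among the sugar families. RefSeq (GRCg7b) served only for chromosome membership. Endothelial (5 of 5) and neural markers (6 of 6) were also summed, to 94.7 to 167 and 130.0 to 241 CPM in hindgut, 98.1 to 145 and 140.3 to 262 CPM in Hoxd13 midgut and 92.3 to 103 and 172 to 239 CPM in midgut.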

Additional observations from a re-analysis of the deposited data

Results flagged for a closer look

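In 7 of 138 sets of 4 samples checked, 1 sample lay far from the other 3 by Dixon's criterion; chance alone flags about 5% of such sets. Hindgut replicate 1 was the sample in 5 of them. It had 43.9 CPM of SLC7A9 and 22.8 CPM of SLC3A1, where the other hindgut samples had 0. Its brush border transporters summed to 160 CPM, against 0 to 15.4 CPM in the others, and its epithelial markers to 2480 CPM, against 982 to 1080 CPM. Its W-linked genes summed to 32.1 CPM, the lowest of the group, where the others had 164 to 191 CPM. The other 2 were SLC44A1 in Hoxd13 midgut, where replicate 3 was lowest at 36.9 CPM (others 44.6 to 45.5), and the summed ion and acid-base carriers in midgut, where replicate 3 was highest at 939 CPM (others 857 to 869).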

How the results depend on the processing

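Among solute carrier genes called, hindgut against midgut gave 2 without a filter on low counts, against 0, and 0 to 15 without each sample in turn. Hoxd13 midgut against midgut gave 3 without a filter and 4 in the fit of the 2 groups alone, against 0, and 0 to 4 without each sample. Hindgut against Hoxd13 midgut gave 1 with DESeq2 and 1 in the fit of the 2 groups alone, against 2, and 0 to 11 without each sample. Among partner genes, hindgut against midgut gave 5 without a filter, 1 with RLE factors, 1 with DESeq2 and 0 in the fit of the 2 groups alone, against 2, and 0 to 7 without each sample. Hoxd13 midgut against midgut gave 1 with RLE factors and 1 with DESeq2, against 2, and 1 to 3 without each sample. Hindgut against Hoxd13 midgut gave 1 with edgeR's own filter, against 0, and 0 to 6 without each sample. The cause of these shifts was not tested. The labels number the replicates 1 to 4 in each group, but the numbers did not pair the samples. Deviations of same-numbered samples correlated by -0.27 to 0.08 over 2518 genes, 0 of 12 pairs above 0.1, and 2 of 12 samples correlated best with their own number. With the replicate number as a block, 0, 0 and 2 solute carrier genes and 3, 1 and 0 partner genes were called in the 3 comparisons. No solute carrier call changed direction, and neither did any gene named for its p in the comparison that named it. In hindgut against Hoxd13 midgut, values that had not passed turned round for SLC7A9 (0.08, against -0.27 with the block), SLC3A1 (0.36, against -0.014 with the block and -0.21 with DESeq2) and SLC26A2 (0.23, against -0.034 with DESeq2). Without each sample these spanned -5.77 to 0.53, -4.63 to 0.79 and -1.93 to 0.60, the lowest in each case without hindgut replicate 1. That fit turned 17 of the 104 values in hindgut against Hoxd13 midgut, and the one without Hoxd13 midgut replicate 2 turned 18. Fitted changes where hindgut replicates 2 to 4 had no count are no bounds. In the fits without a sample 361 values kept their direction and side of the threshold, 20 came to pass in the same direction, 11 ceased to and 4 turned round. In the other alternatives 201, 10, 2 and 4 did so. Of those 10, 4 were in Hoxd13 midgut against midgut fitted alone. Values that turned round are not among those that came to pass. SLC7A9 and SLC3A1 in hindgut against Hoxd13 midgut turned round and passed without hindgut replicate 1 (edgeR adjusted p = 1e-04 and 0.017). All class sums moved by less than the spread between replicates with RLE factors. Depth limits the genes of low counts most: 48 of 104 had under 100 counts over 12 samples.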
